A study of Mus musculus with 16 samples.

Results

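The genes described here are 44 antiviral interferon-stimulated genes, listed by name as sensors, effectors and regulators of the antiviral state, out of 56748 genes in a count table of mouse bone marrow-derived macrophages. All 44 were in the table, each on 1 line, and 44 of 44 passed the filter on low counts, as did 13438 genes in all. Their names were chosen from general knowledge and not by a threshold on these data, but with earlier results of these data known. The macrophages came from wild-type male C57BL6 mice and were grown with medium conditioned by L929 cells, the usual source of macrophage colony-stimulating factor. Each of 4 mice gave 1 messenger RNA library to each of 4 groups. DMSO, the vehicle, was the control. The SR9009 group received 10 µM SR9009, a synthetic agonist of the circadian repressors REV-ERBα and REV-ERBβ, for 16 hours. The LPS group received 100 ng/mL of lipopolysaccharide, a bacterial product sensed by Toll-like receptor 4, for 6 hours, and the SR9009 plus LPS group received both, SR9009 first. Whether cells of the LPS group had the vehicle overnight is not stated in their labels, so a difference in vehicle cannot be told apart from the other differences in each comparison that uses it.

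Type I interferons are secreted proteins that bind a receptor on the same or neighbouring cells and activate JAK kinases, which in turn switch on a transcription factor complex that holds IRF9 and binds the interferon-stimulated response element (ISRE), a short repeat of GAAA blocks in the promoters of its target genes. Macrophages keep a low tonic level of this signalling without infection. LPS adds to it through the adaptor TRIF, the kinase TBK1 and the factor IRF3, which induce interferon β. The products of the 44 genes detect viral RNA, degrade or edit it, modify proteins with ISG15 or ADP-ribose, or block viral entry, replication and release.

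The promoters below were picked because they hold the ISRE repeat, in genes that carry results in the text. Promoters were taken from RefSeq (assembly GRCm38.p6, 250 bases before to 50 bases after each annotated start), which held entries for 34 of the 44 genes and 40 promoters of theirs. Capitals mark every match to the ISRE core GAAANNGAAA, searched on both strands, with overlapping matches merged. Each sequence is the gene's strand, 5′ to 3′, within the bases before the start.
Isg15, chr4:156200819-156200938, minus strand: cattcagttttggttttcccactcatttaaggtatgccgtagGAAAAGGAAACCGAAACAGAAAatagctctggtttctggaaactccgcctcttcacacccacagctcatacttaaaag
Oas1a, chr5:120907526-120907625, minus strand: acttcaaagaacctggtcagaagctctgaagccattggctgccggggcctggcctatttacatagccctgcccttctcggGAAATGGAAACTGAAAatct
Oas3, chr5:120777660-120777759, minus strand: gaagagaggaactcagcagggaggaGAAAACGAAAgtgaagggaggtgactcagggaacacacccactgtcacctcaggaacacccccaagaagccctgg
Phf11b, chr14:59341331-59341430, minus strand: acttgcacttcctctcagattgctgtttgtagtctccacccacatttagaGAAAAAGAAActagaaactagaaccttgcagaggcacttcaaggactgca
Slfn8, chr11:83020811-83020910, minus strand: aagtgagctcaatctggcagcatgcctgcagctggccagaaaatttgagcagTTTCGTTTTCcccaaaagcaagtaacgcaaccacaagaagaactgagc
Rsad2, chr12:26456453-26456602, minus strand: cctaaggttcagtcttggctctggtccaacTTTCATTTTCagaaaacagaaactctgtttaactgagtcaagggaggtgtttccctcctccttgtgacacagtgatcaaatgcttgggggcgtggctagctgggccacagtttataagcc
Bst2, chr8:71537473-71537622, minus strand: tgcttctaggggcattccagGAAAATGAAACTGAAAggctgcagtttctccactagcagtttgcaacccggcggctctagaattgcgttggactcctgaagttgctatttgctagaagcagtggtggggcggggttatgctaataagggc

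Isg15 held 3 overlapping matches in a row, Oas1a and Bst2 held 2, and Rsad2 and Slfn8 held theirs on the other strand. The core was in 17 of the 40 promoters (42.5%) and in 3.44% of the 32851 promoters of the RefSeq table. By gene, it was in 4 of the 12 with an entry that were called lower with SR9009 alone, as described below. It was in 11 of the 22 with an entry that were not called. The core of the GAS element, TTCNNNGAA, another element of interferon-responsive promoters, was in 6 of the 40 (15%) and in 8.30% of all. The letters TAGGTCA, part of the element that REV-ERB and ROR receptors bind, were in 3 of the 40 (7.5%) and in 2.61% of all. Those 3 promoters belonged to Herc6 and Trim30a. No entry was found for Dhx58, Mx1, Mx2, Oas2, Usp18, Parp9, Parp14, Rtp4, Ifi27l2a and Tor3a. These matches describe the letters in this window and do not show binding.

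Total counts were 12616442 to 24214863 per library. The 7 macrophage markers (Adgre1, Itgam, Csf1r, Cd68, Lyz2, Fcgr1 and Mertk) all had counts in every group and summed to 5228 to 10007 CPM (counts divided by each library's effective size, as computed here). Lyz2 was low among them, at 9.22 to 54.7 CPM. Markers of neutrophils, B cells, T and NK cells, conventional dendritic cells, stromal cells and erythroid cells summed to at most 7.24 CPM in any library. Of the 6 plasmacytoid dendritic cell markers, Siglech was at or below 0.385 CPM and Klk1 at 0 in every library, and Tcf4 made up most of the sum of 80.7 to 433 CPM. The SR9009 library of mouse 1 stood apart. It had the lowest total, 13298 detected genes against at least 16419 in every other library, and the highest mitochondrial share (1.64%). Its values followed base composition, as described further down, so the SR9009 results are also given with that library left out. These are bulk samples, in which fewer cells of a type and less RNA per cell cannot be told apart.

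LPS raised nearly the whole set. The summed level of the 44 genes was 5386 to 10951 CPM in the 4 DMSO libraries and 36809 to 60524 CPM in the 4 LPS libraries, with no overlap. With edgeR's quasi-likelihood test and Benjamini-Hochberg adjustment over all tested genes (threshold 0.05), 43 of 44 were higher in LPS than in DMSO and none was lower, against 19.4% of all tested genes called higher. The median log2 fold change was 2.42 over the 44 genes and -0.08 over all tested genes. The LPS and DMSO libraries did not overlap for 43 of the 44, against 27% of all tested genes.

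Of the 44 genes, Rsad2 had the largest log2 fold change. It encodes viperin, which makes a chain-terminating nucleotide from CTP, and Cmpk2 encodes the nucleotide kinase beside it on chromosome 12 (GRCm39 chr12:26492745-26506451 and chr12:26519203-26529836). Rsad2 was at 201, 277, 53.6 and 109.9 CPM in DMSO and at 13604, 9871, 4047 and 5898 CPM in LPS (mice 1 to 4), a log2 fold change of 5.70 (SE 0.60, edgeR adjusted p = 2.66e-06). Cmpk2 rose by 5.23 on the log2 scale (SE 0.43, edgeR adjusted p = 2.55e-07). Both were higher in LPS in 4 of 4 mice. Per length, in the deposited FPKM, Rsad2 went from a mean of 35.9 in DMSO to 1952 in LPS and ranked 3rd of the 44 genes there. Ifitm3, which blocks fusion of viruses in endosomes, had the highest mean FPKM of the 44 in all 4 groups (1075 in DMSO, 2448 in LPS), and Isg15, a ubiquitin-like modifier, ranked 2nd in LPS at 1990.

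Among the sensors and helicases, 6 of 6 rose. Ifih1 (MDA5, a sensor of long double-stranded RNA) rose from 110.4, 144.1, 66.2 and 88.2 CPM to 1625, 1296, 854 and 936 CPM, a log2 fold change of 3.53 (SE 0.39, edgeR adjusted p = 3.89e-06). All 7 of the OAS, PKR and ADAR1 genes rose, by a median of 2.07 on the log2 scale. Oasl1, a 2′-5′-oligoadenylate synthetase-like protein without the usual enzyme activity, rose most among them (5.44, SE 0.61, edgeR adjusted p = 5.02e-06). All 3 genes of the ISG15 system, 4 of 4 ADP-ribosylation genes, 5 of 5 TRIM, nuclear body and PHD finger genes and 4 of 4 Schlafen genes rose. Phf11b, a PHD finger gene, had the smallest adjusted p of the 44: it was at 28.8, 37.6, 16.0 and 20.7 CPM in DMSO and 601, 740, 566 and 594 CPM in LPS (4.60, SE 0.29, edgeR adjusted p = 2.92e-08).

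Ifi27l2a, a small interferon-inducible gene of the Ifi27 family, was the 1 gene not called. It was at 239.5, 284, 147.0 and 200 CPM in DMSO and 338, 484, 239.9 and 297 CPM in LPS. Each mouse was higher with LPS, but the groups overlapped, and the log2 fold change was 0.64 (SE 0.48, edgeR adjusted p = 0.308). It was already at a mean of 457 FPKM in DMSO, the level next below Ifitm3 among the 44 genes.

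**Figure D1:**
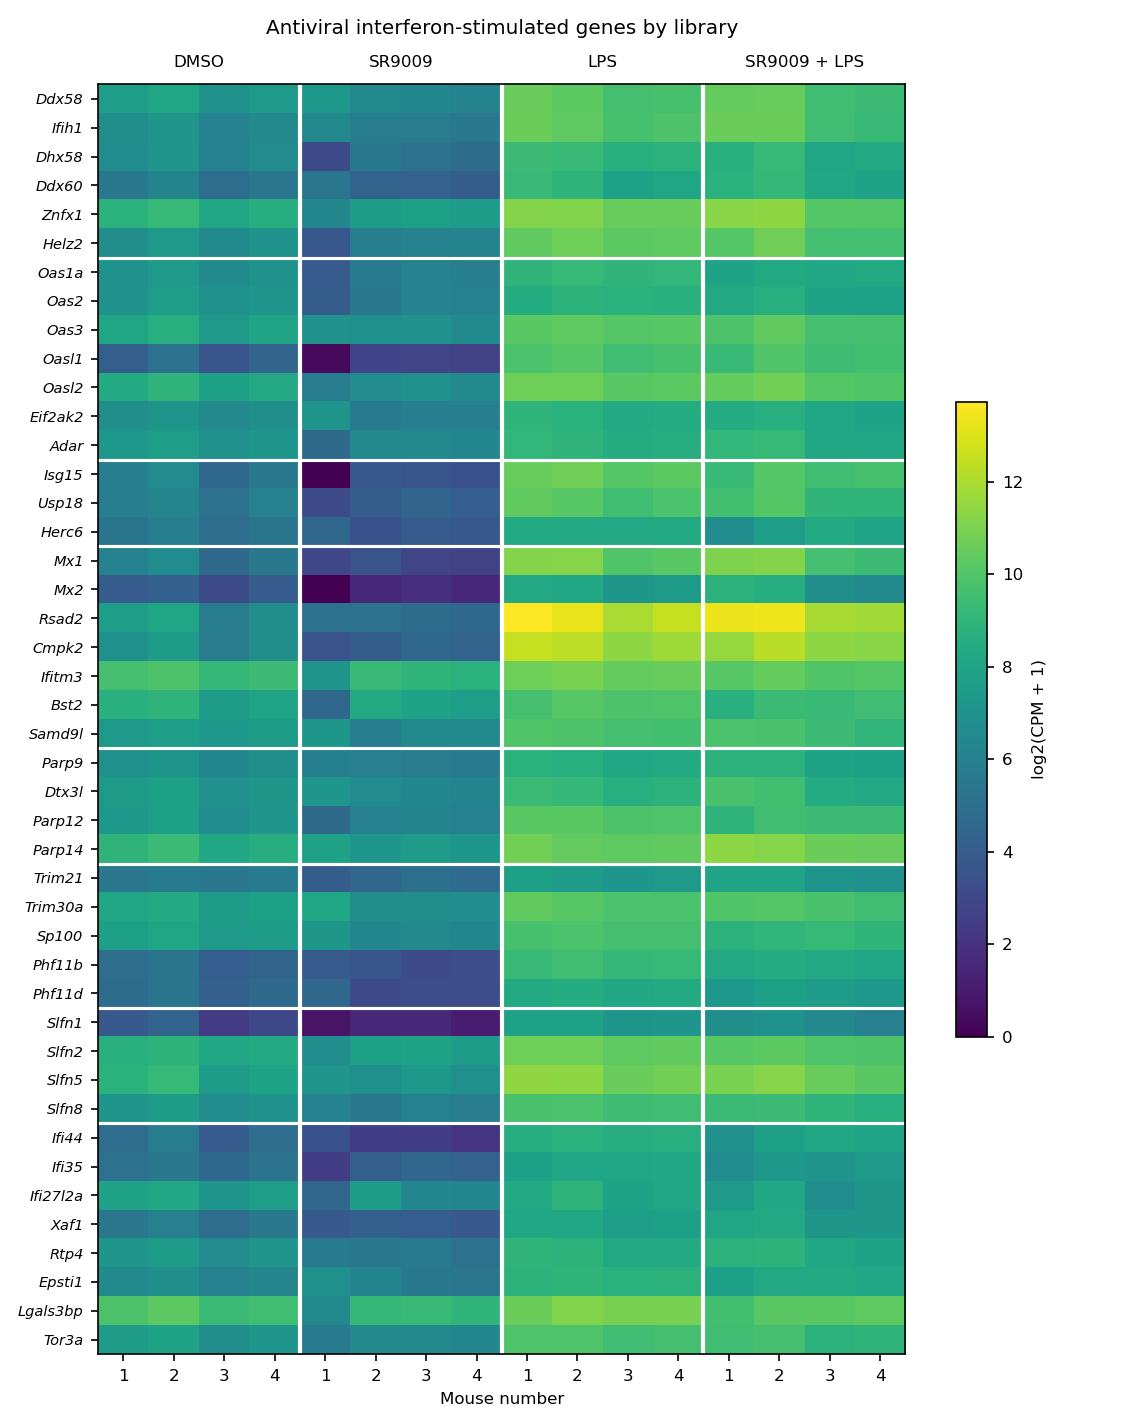
Heat map of log2(CPM + 1) for the 44 genes (rows) in 16 libraries (columns, mouse number below, group above); white lines part the groups and the 8 role groups (from the top: sensors and helicases; OAS, PKR and ADAR1; ISG15 system; direct effectors; ADP-ribosylation; TRIM, nuclear body and PHD finger; Schlafen; others). The LPS blocks are brighter than the blocks without LPS in nearly every row, and Isg15 and Mx2 are at 0 in the SR9009 library of mouse 1.

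Without LPS, SR9009 lowered part of the set. The summed level of the 44 genes was 2788, 4011, 3973 and 3394 CPM in the SR9009 libraries of mice 1 to 4, below all 4 DMSO libraries. edgeR called 18 of 44 lower and none higher, against 0.566% of all tested genes called lower. Without the SR9009 library of mouse 1, 28 were called lower, the same 18 among them. Shares of all tested genes called are given only for the edgeR fit of all 16 libraries without the replicate block. Counts of called genes from every other fit, here and below, stand without such a share. Whether calls rose over all genes too is therefore not shown. All 44 log2 fold changes were negative, from -3.04 for Mx1 to -0.34 for Epsti1, with a median of -1.29 (-1.38 without that library) and of 0.01 over all tested genes. At an unadjusted p under 0.05, 41 were lower, against 3.72% of all tested genes. With mouse number as a replicate block, edgeR called 22: Ddx58, Dhx58, Oas1a, Parp9, Slfn5 and Tor3a were added, and Mx2 (adjusted p = 0.0573) and Herc6 (adjusted p = 0.0737) were lost.

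The 2 groups did not overlap for 33 of 44 genes, against 4.64% of all tested genes with SR9009 wholly below DMSO. Taken mouse by mouse, 40 of 44 were lower with SR9009 in 4 of 4 mice, against 12.8% of all tested genes. The other 4 (Eif2ak2, Bst2, Trim30a and Epsti1) were lower in 3 of 4. With mice 2 to 4 alone on the SR9009 side, 40 of 44 lay below every DMSO library, against 7.58% of all tested genes, and the exceptions were Ifitm3, Bst2, Ifi27l2a and Epsti1. The count of calls moved with the mice kept. Without mouse 2 or mouse 4 no gene was called, without mouse 3 there were 6, and a fit of the SR9009 and DMSO libraries alone called 0. DESeq2 called 32. The median log2 fold change stayed between -1.51 and -1.08 when each mouse was left out in turn.

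Among the 7 direct effectors, 4 fell (Mx1, Mx2, Rsad2 and Cmpk2), and Ifitm3, Bst2 and Samd9l did not pass the test. Cmpk2 was at 117.7, 185.2, 56.5 and 107.6 CPM in DMSO and at 10.3, 15.8, 23.2 and 19.4 CPM in SR9009. Every SR9009 library lay below every DMSO library, and the fall was 6.78-fold (log2 -2.76, SE 0.39, edgeR adjusted p = 0.00414). Mx1, a dynamin-like GTPase whose gene is defective in most laboratory strains, C57BL/6 included, was at 64.7, 102.9, 25.7 and 44.9 CPM in DMSO and 6.69, 10.4, 6.28 and 5.49 CPM in SR9009 (log2 -3.04, SE 0.51, edgeR adjusted p = 0.00951). It was singled out after its values were seen, as were Mx2 and Rsad2. Rsad2 (log2 -2.42, SE 0.52, edgeR adjusted p = 0.0367) and Mx2 (-3.02, SE 0.67, edgeR adjusted p = 0.0470) also fell, Mx2 from at most 17.2 CPM and with 0 counts in the SR9009 library of mouse 1. Bst2, or tetherin, which holds budding virions on the cell surface, was at 420, 483, 195 and 260 CPM in DMSO and 24.4, 322, 252 and 199 CPM in SR9009. Its groups overlapped, the lowest value was that of the mouse 1 library, and the log2 fold change was -0.77 (SE 0.50, edgeR adjusted p = 0.568).

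In the OAS, PKR and ADAR1 group, 3 of 7 fell (Oas2, Oas3 and Oasl2), and 6 of 7 without the SR9009 library of mouse 1. OAS enzymes make 2′-5′-linked oligoadenylates that switch on RNase L. Oasl2 was at 332, 483, 219 and 307 CPM in DMSO and 52.7, 96.9, 119 and 93.4 CPM in SR9009, a fall of 3.70-fold with no overlap (log2 -1.89, SE 0.29, edgeR adjusted p = 0.00524). Eif2ak2, which encodes PKR, the kinase that halts translation on binding double-stranded RNA, was at 110.8, 138, 85.9 and 111 CPM in DMSO and 138.7, 51.6, 58.0 and 56.9 CPM in SR9009. Here the mouse 1 library was the highest of the SR9009 group and the other 3 lay below all DMSO libraries. The log2 fold change was -0.55 (SE 0.29, edgeR adjusted p = 0.478), and -1.05 without that library (edgeR adjusted p = 0.0133).

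In the ISG15 system, Usp18 and Herc6 fell and Isg15 did not pass the test. Usp18 removes ISG15 from proteins and restrains the interferon receptor. It was at 57.1, 74.0, 35.6 and 62.3 CPM in DMSO and 7.80, 15.3, 21.5 and 16.3 CPM in SR9009 (log2 -1.91, SE 0.34, edgeR adjusted p = 0.0141). Isg15 was at 57.5, 95.9, 23.7 and 45.8 CPM in DMSO and 0, 12.2, 11.0 and 9.82 CPM in SR9009, with no overlap. Its log2 fold change was -2.74 (SE 0.74, edgeR adjusted p = 0.130). Without the library at 0 it was -2.38 (edgeR adjusted p = 0.00494). Per length, Isg15 ranked 6th of the 44 genes in DMSO and 24th in SR9009.

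None of the 6 sensors and helicases was called in the edgeR fit without the replicate block. With the block, Ddx58 (adjusted p = 0.0336) and Dhx58 (adjusted p = 0.0454) were called, and DESeq2 called Dhx58, Znfx1 and Helz2. All 6 had an unadjusted p under 0.05 and a negative log2 fold change (median -1.13). Dhx58, which encodes LGP2, a helicase that tunes RIG-I and MDA5 signalling, was at 101.9, 143, 64.3 and 96.3 CPM in DMSO and 7.46, 45.4, 35.8 and 27.9 CPM in SR9009. The groups did not overlap (log2 -1.80, SE 0.43, edgeR adjusted p = 0.0690), and without the mouse 1 library the value was -1.52 (edgeR adjusted p = 0.0251). Ifih1 was at 87.5, 53.7, 56.4 and 46.2 CPM in SR9009, overlapping DMSO through mouse 1 (log2 -0.75, SE 0.35, edgeR adjusted p = 0.426).

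Of the 4 ADP-ribosylation genes, Parp12 and Parp14 fell. Parp12 encodes a mono-ADP-ribosyltransferase that restricts several RNA viruses. It was at 160, 211.7, 101.9 and 140.2 CPM in DMSO and 25.7, 61.8, 69.9 and 62.9 CPM in SR9009 (log2 -1.48, SE 0.29, edgeR adjusted p = 0.0252). Dtx3l, a ubiquitin ligase that pairs with PARP9, was at 177, 223, 121.4 and 155 CPM in DMSO and 146, 97.9, 85.0 and 73.2 CPM in SR9009, with overlap through mouse 1 (log2 -0.75, SE 0.34, edgeR adjusted p = 0.414). Dtx3l and Parp9 lie head to head with overlapping ends on chromosome 16 (GRCm39 chr16:35746881-35759521 and chr16:35758840-35792975), and reads in the overlap cannot be told apart where strand was not used.

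Sp100, a scaffold of nuclear bodies, and Phf11b fell within the TRIM, nuclear body and PHD finger group (2 of 5, and 4 of 5 without the SR9009 library of mouse 1). Phf11b was at 14.1, 11.9, 8.17 and 8.37 CPM in SR9009, below each DMSO library (log2 -1.28, SE 0.26, edgeR adjusted p = 0.0277). Trim30a was at 267, 337, 177 and 224 CPM in DMSO and 289.9, 113.7, 110.9 and 106.6 CPM in SR9009. Its mouse 1 value was the only SR9009 value inside the DMSO range, and the log2 fold change moved from -0.69 (SE 0.31, edgeR adjusted p = 0.416) to -1.23 without that library (edgeR adjusted p = 0.0107).

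Schlafen genes, some of which bind and cut transfer RNA, lie together on chromosome 11. Of the 4, Slfn1 and Slfn8 fell. Slfn1 was at 13.3, 19.6, 4.51 and 6.90 CPM in DMSO and 0.627, 1.86, 1.85 and 1.05 CPM in SR9009, an 8.02-fold fall at a low level (log2 -3.00, SE 0.46, edgeR adjusted p = 0.00521). Slfn2, the most abundant Schlafen gene per length (218 FPKM in DMSO), was at 404, 472, 285 and 334 CPM in DMSO and 106, 226, 244 and 184 CPM in SR9009, with no overlap (log2 -0.98, SE 0.24, edgeR adjusted p = 0.0902).

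Among the 8 remaining genes, Ifi44, Xaf1 and Rtp4 fell. Rtp4, a chaperone-like protein induced by interferon, was at 145.3, 194.6, 96.3 and 142.5 CPM in DMSO and 48.0, 43.9, 49.3 and 35.3 CPM in SR9009. Every SR9009 value was below every DMSO value, and the fall was 3.28-fold (log2 -1.71, SE 0.27, edgeR adjusted p = 0.00734). Epsti1 had the smallest difference of the 44: it was at 95.5, 114, 65.5 and 74.4 CPM in DMSO and 116, 73.3, 45.5 and 40.6 CPM in SR9009 (log2 -0.34, SE 0.29, edgeR adjusted p = 0.687). Ifi27l2a was at 22.0, 194.6, 80.2 and 78.3 CPM in SR9009 (log2 -1.21, SE 0.48, edgeR adjusted p = 0.356).

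**Figure D2:**
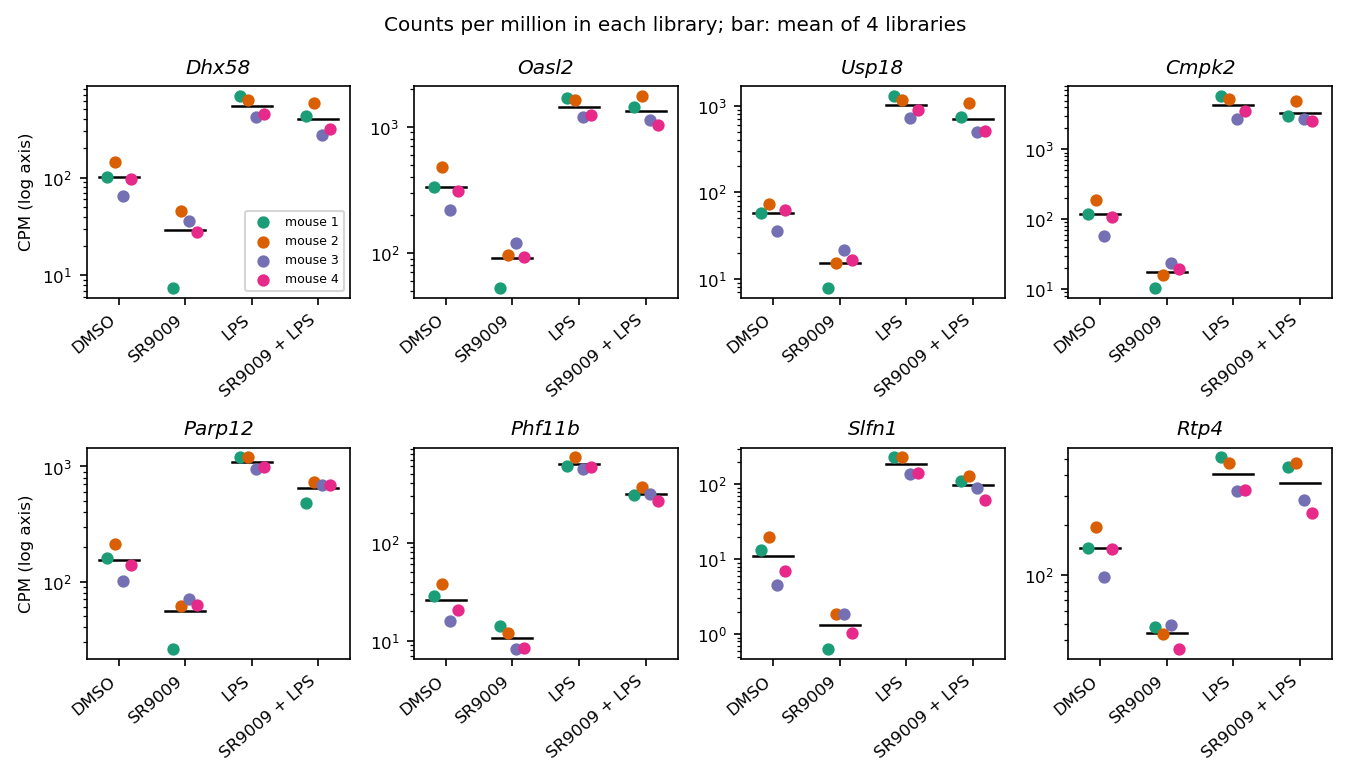
CPM on a log axis in each library for the gene with the smallest p for SR9009 versus DMSO in each of the 8 role groups; colours mark the mouse and the bar is the mean of 4 libraries. SR9009 points lie below all DMSO points in every panel, while the SR9009 plus LPS points overlap the LPS points except for Phf11b, Parp12 and Slfn1.

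The SR9009 library of mouse 1 split the genes by base composition. G+C content of the longest transcript was known for 44 of 44 genes. Across these genes the log2 ratio of this library to the mean of the other 3 SR9009 libraries correlated with G+C content at r = -0.83, and at r = -0.80 across 9711 genes of the whole table. Genes are not independent replicates, and all points share the same libraries. The 22 genes of lower G+C content (38.8 to 47.4%) had a median log2 ratio of 0.76, with 17 above the mean of the other 3 libraries. The 22 of higher content (47.5 to 56.3%) had a median of -1.89, with 19 below that mean. Isg15, Bst2, Oasl1 and Lgals3bp were among the low ones, and Trim30a, Eif2ak2, Phf11d and Epsti1 among the high ones.

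**Figure D3:**
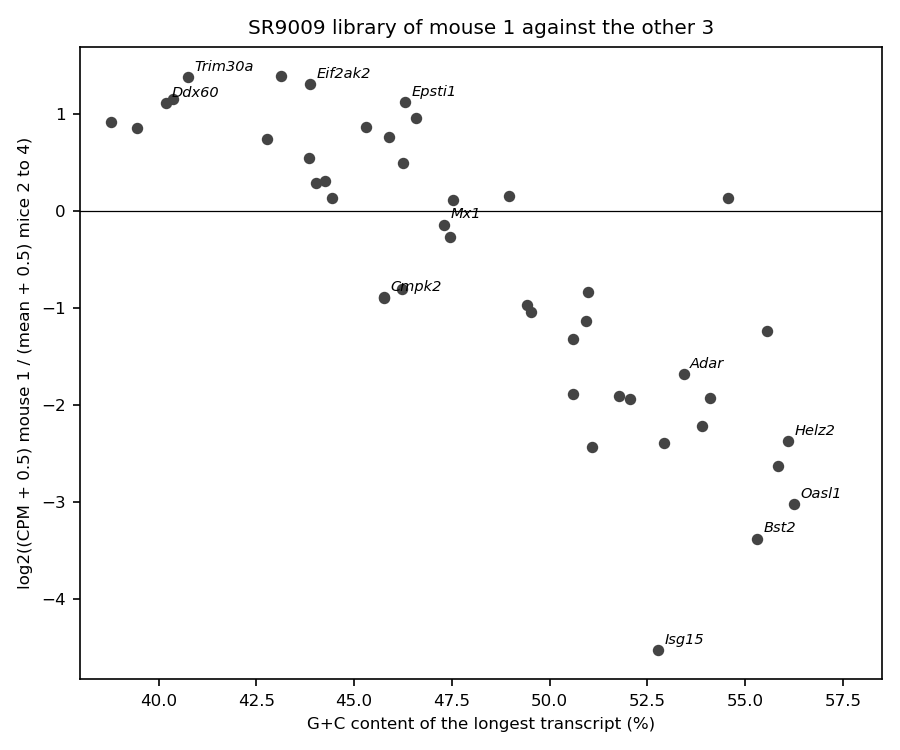
Each point is 1 of the 44 genes; the x axis is the G+C content of its longest transcript (%) and the y axis the log2 ratio of CPM in the SR9009 library of mouse 1 to the mean of mice 2 to 4, with 0.5 CPM added to both. Genes of low G+C content lie mostly above 0 and genes of high content mostly below, with r = -0.83 over the 44 points.

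With LPS present, the median SR9009 difference on the log2 scale was smaller than without LPS. No gene passed the test in the edgeR fit of all 16 libraries without the replicate block. The summed level of the 44 genes was 45307, 53431, 30215 and 28482 CPM in the SR9009 plus LPS libraries of mice 1 to 4 and 60524, 56983, 36809 and 41417 CPM in the LPS libraries. The groups overlapped, although each mouse was lower with SR9009. edgeR called 0 of 44 lower and 0 higher, against 0.737% of all tested genes called lower. At an unadjusted p under 0.05, 10 of 44 were lower, against 5.74% of all tested genes. DESeq2, and edgeR with mouse number as a replicate block, each called 1 (Phf11b). The median log2 fold change was -0.37 over the 44 genes and 0.02 over all tested genes, and 40 of 44 were negative.

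The SR9009 plus LPS libraries lay wholly below the LPS libraries for 14 of 44 genes, against 7.78% of all tested genes. Within mice, 27 of 44 were lower in 4 of 4 mice, against 22.9% of all tested genes. Leaving out the SR9009 library of mouse 1, which is in neither group but shares the estimate of spread, moved the count of called genes to 7 (Ifi35, Lgals3bp, Oas1a, Parp12, Phf11b, Phf11d and Sp100), and a fit of the LPS and SR9009 plus LPS libraries alone called 8, these 7 and Epsti1. Without mouse 1 altogether it was 3, and without each other mouse it was 0.

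Phf11b came closest to the threshold. It was at 601, 740, 566 and 594 CPM in LPS and 307, 367, 310 and 266 CPM in SR9009 plus LPS, so that every mouse was near the same ratio (0.511, 0.496, 0.548 and 0.448). The log2 fold change was -1.0002 (SE 0.25, edgeR adjusted p = 0.0600). Parp12 was at 1204, 1206, 947 and 993 CPM in LPS and 485, 740, 693 and 693 CPM with SR9009 (log2 -0.74, SE 0.29, edgeR adjusted p = 0.243), again with no overlap. Oas1a, singled out after its values were seen, was at 499, 586, 502 and 547 CPM in LPS and 235, 318, 303 and 321 CPM with SR9009 (log2 -0.86, SE 0.33, edgeR adjusted p = 0.234, or 0.00538 where the mouse 1 SR9009 library was left out).

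Genes with a large fall under SR9009 alone had log2 fold changes of different size here, and differences between genes were not tested. Slfn1 was at 231, 229, 137.4 and 140.8 CPM in LPS and 109.4, 129.9, 88.3 and 62.2 CPM with SR9009, with no overlap (log2 -0.92, SE 0.41, edgeR adjusted p = 0.328). Ifi44, singled out after its values were seen, also did not overlap between groups (log2 -0.84, SE 0.38, edgeR adjusted p = 0.349). Cmpk2 did overlap. It was at 5907, 5355, 2708 and 3560 CPM in LPS and 3060, 4985, 2731 and 2546 CPM with SR9009 (log2 -0.40, SE 0.36, edgeR adjusted p = 0.724). Rsad2 was at 10312, 10795, 3980 and 3615 CPM with SR9009, with mice 3 and 4 below the lowest LPS library and mice 1 and 2 inside the LPS range (log2 -0.22, SE 0.49, edgeR adjusted p = 0.916). Ifih1 was not among the genes with a large fall and was not called with SR9009 alone. With LPS present its value was -0.05 (SE 0.35, edgeR adjusted p = 0.982), and it was 0.022 with upper-quartile scaling. Isg15 was at 1509, 1729, 1086 and 1230 CPM in LPS and 610, 1111, 739 and 836 CPM with SR9009, lower in each mouse but overlapping through mouse 2 (log2 -0.75, SE 0.69, edgeR adjusted p = 0.726). The 6 sensors and helicases had a median log2 fold change of -0.05 and the 5 TRIM, nuclear body and PHD finger genes one of -0.73. Without LPS these medians were -1.13 and -1.07. The 5 genes were not uniform with LPS present. The median within-mouse ratio was 0.593 for Sp100, 0.503 for Phf11b and 0.536 for Phf11d. It was 0.878 for Trim30a and 1.04 for Trim21. A difference between role groups was not tested.

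Parp14, a macrodomain ADP-ribosyltransferase, had the highest of 4 positive log2 fold changes, none of which passed the test. It was at 1760, 1407, 1299 and 1329 CPM in LPS and 2685, 2451, 1603 and 1493 CPM with SR9009. It was higher in 4 of 4 mice, with overlapping groups (log2 0.51, SE 0.26, edgeR adjusted p = 0.425). Dtx3l (0.15), Mx2 (0.14) and Trim21 (0.08) were the other positive values. All 4 were named after their values were seen, Dtx3l apart.

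**Figure D4:**
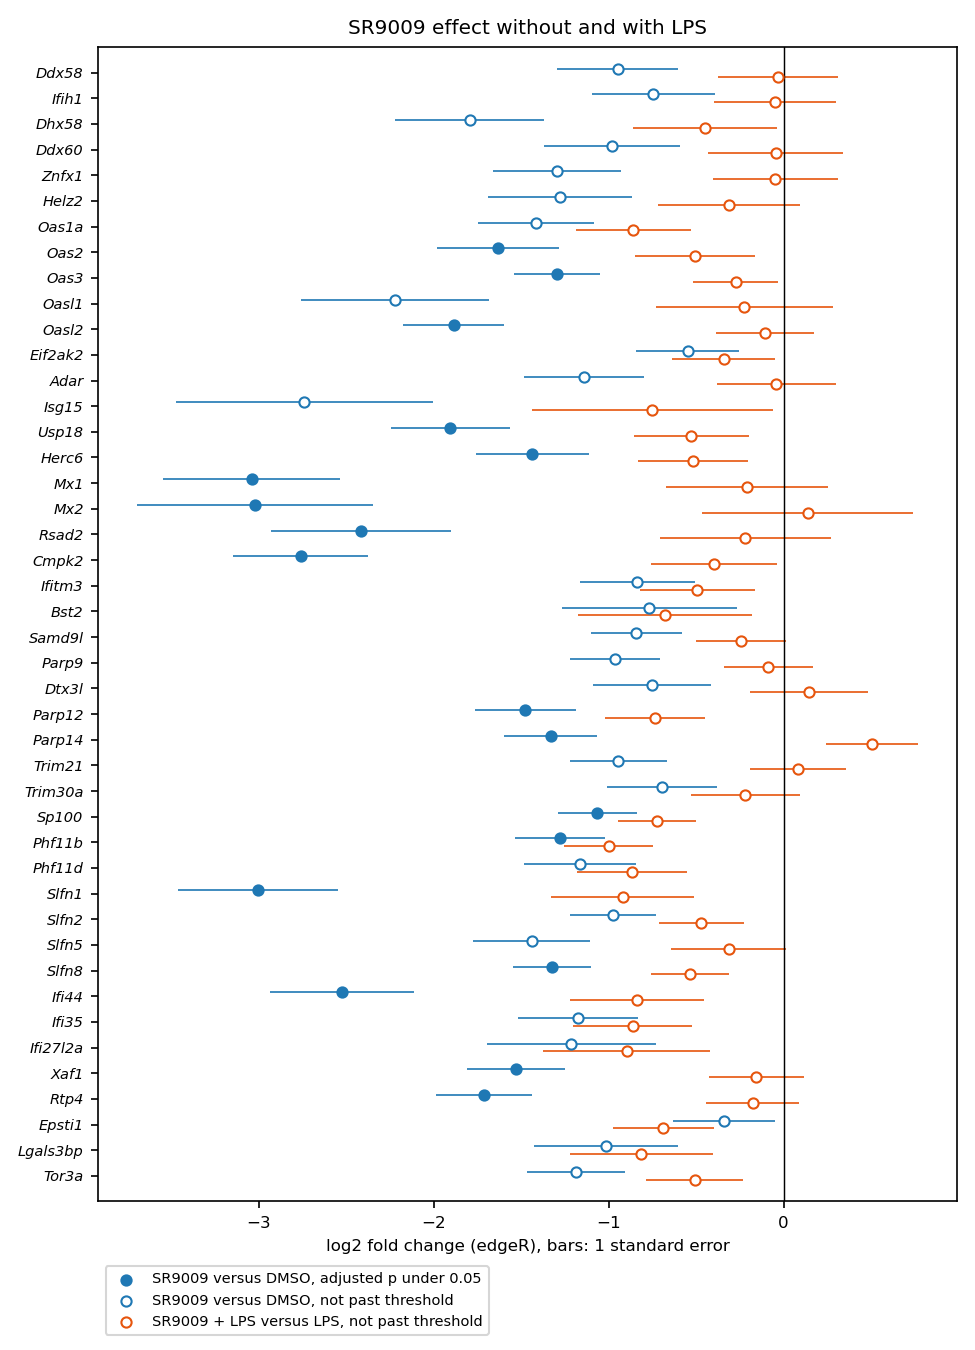
log2 fold change (point) and 1 SE (bar) of each of the 44 genes for SR9009 versus DMSO (blue) and for SR9009 plus LPS versus LPS (orange); filled points have an adjusted p under 0.05 in edgeR. The blue points are all below 0 with 18 filled, and none of the orange points is filled.

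The difference between these 2 SR9009 effects was tested as an interaction. edgeR called 0 of 44 genes in either direction, against 0.00744% of all tested genes (1 gene). At an unadjusted p under 0.05, 21 of 44 had a positive interaction, meaning a less negative SR9009 effect with LPS, against 3.5% of all tested genes. The interaction was positive in 43 of 44, Epsti1 being the exception (-0.35), with a median of 0.93 against 0.00 over all tested genes. The smallest edgeR adjusted p was 0.155, for Cmpk2 (2.37, SE 0.52) and Parp14 (1.84, SE 0.37). With mouse number as a replicate block, edgeR called Mx1 and Parp14. DESeq2 called 6 (Cmpk2, Mx1, Mx2, Oasl2, Parp14 and Rtp4), and without the SR9009 library of mouse 1 edgeR called Parp14 alone (2.06, adjusted p = 0.0284). With both that library left out and the block, 13 were called.

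Against SR9009 alone, adding LPS raised 43 of 44 genes (edgeR, adjusted), against 14.5% of all tested genes. The median log2 fold change was 3.43, and the highest was in Rsad2 (7.90, SE 0.66, edgeR adjusted p = 4.62e-07). Ifi27l2a was again not called (0.96, SE 0.48, edgeR adjusted p = 0.146). This comparison shares its libraries with the ones above. The LPS comparison and the SR9009 comparison likewise share the DMSO libraries.

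**Figure D5:**
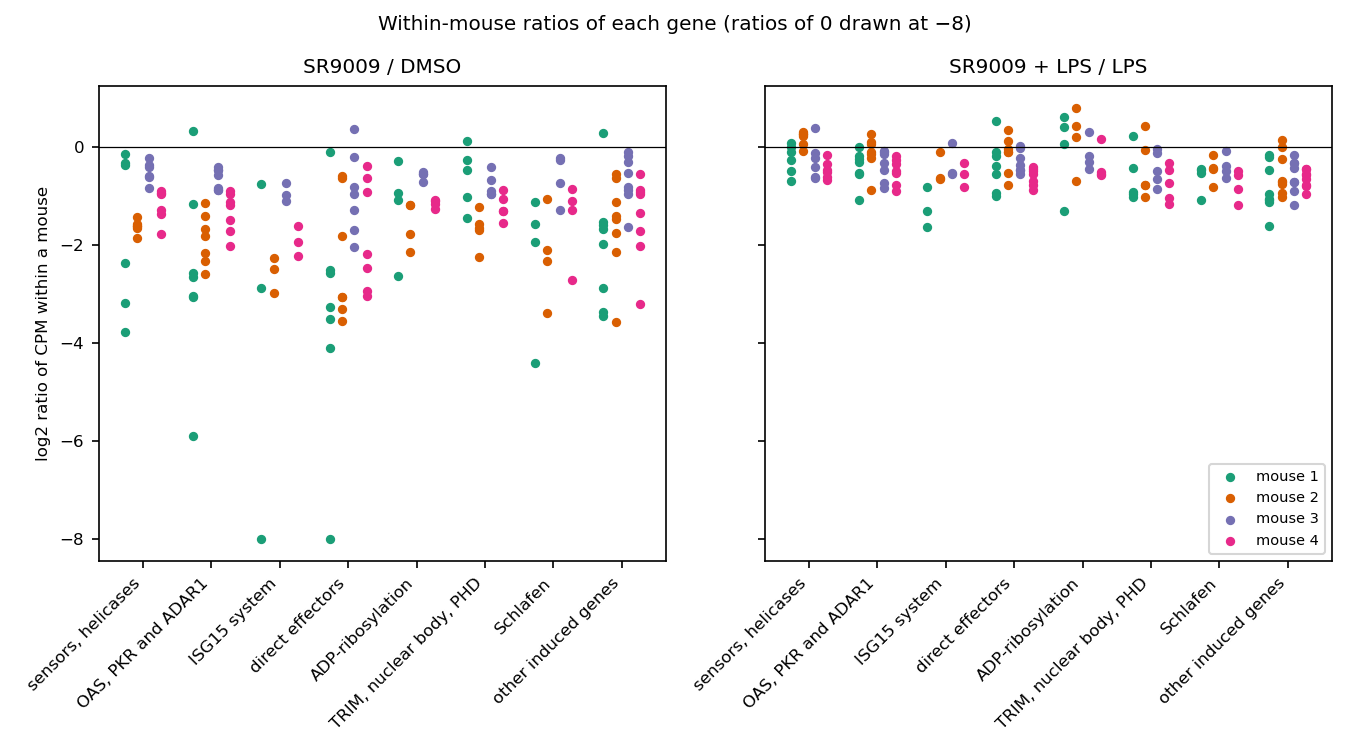
Within-mouse log2 ratios of CPM for SR9009 to DMSO (left) and SR9009 plus LPS to LPS (right), 1 point per gene and mouse, arranged by role group; ratios of 0 are drawn at -8. The left points lie mostly below 0 in all 4 mice and the right points lie nearer to 0.

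Within a mouse, the median ratio of SR9009 to DMSO over the 44 genes was 0.258, 0.301, 0.616 and 0.414 in mice 1 to 4. The median ratio of SR9009 plus LPS to LPS was 0.716, 0.928, 0.756 and 0.681. The mice also differed from each other within groups. Among DMSO libraries mouse 2 was highest for 44 of 44 genes (25.2% of all tested genes) and mouse 3 lowest for 43 of 44 (23.0%). Mice 1 and 2 were both above mice 3 and 4 for 32 of 44 genes in DMSO, 36 in LPS, 31 in SR9009 plus LPS and 9 in SR9009. The corresponding shares of all tested genes were 34.8%, 32.1%, 34.5% and 20.3%. Mx1 with LPS shows the pattern, at 2346 and 2425 CPM in mice 1 and 2 and 1026 and 1179 CPM in mice 3 and 4. The plasmacytoid dendritic cell list, most of it Tcf4, had the same order with LPS and summed to 395 and 303 CPM in mice 1 and 2 and 131 and 142 CPM in mice 3 and 4. The list also had mice 1 and 2 above mice 3 and 4 with SR9009 plus LPS (408, 433, 125 and 113 CPM). It did so with SR9009 alone (156, 92.1, 89.0 and 80.7 CPM), but not in DMSO (128, 131, 133 and 115 CPM). Its part in the members' order was not tested, and Siglech was at or below 0.385 CPM in all libraries.

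The genes upstream of the set were taken from a fixed list of 34 genes of interferon induction and signalling, of which 32 were tested. LPS raised 21 and lowered 3 (Tlr4, Mavs and Sting1), against 2611 raised and 2741 lowered of all 13438 tested genes. SR9009 lowered 3 and raised none, against 0.566% of all tested genes called lower. Of these, Zbp1 is a sensor of Z-form nucleic acid (log2 -2.59, edgeR adjusted p = 0.00414) and Irf7 the interferon-inducible factor that amplifies interferon transcription (-1.92, edgeR adjusted p = 0.0349). Irf7 was at 146, 292, 117 and 174 CPM in DMSO and 15.7, 72.4, 66.5 and 38.4 CPM in SR9009, with no overlap. The receptor chains Ifnar1 (-0.02) and Ifnar2 (-0.19) and the kinase Jak1 (0.16) did not pass the test. Over the 32 tested genes of the list, 27 log2 fold changes were negative, with a median of -0.53. At an unadjusted p under 0.05 in edgeR, 13 were lower and 1 was higher, against 3.72% of all tested genes lower. Ifnb1, which encodes interferon β, was too low for a test, at no more than 1.94 CPM in any library and 0 counts in the 4 SR9009 libraries.

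With LPS present, Tlr3, the endosomal receptor for double-stranded RNA, was the only gene of that list called lower with SR9009, and none was called higher. It was at 246, 261, 172 and 218 CPM in LPS and 93.2, 143.1, 117.3 and 108.1 CPM in SR9009 plus LPS, with no overlap (log2 -0.96, SE 0.21, edgeR adjusted p = 0.0276). Irf7 was at 2175, 2913, 2244 and 2324 CPM in LPS and 651, 1348, 1107 and 1204 CPM with SR9009, also without overlap (-1.16, SE 0.40, edgeR adjusted p = 0.167). The share of all tested genes called lower there was 0.737%. With LPS present, 24 of the 32 tested genes of the list had a negative log2 fold change, with a median of -0.33. At an unadjusted p under 0.05 in edgeR, 10 were lower and 1 was higher, against 5.74% of all tested genes lower. No gene of the list was called in the interaction, against 0.00744% of all tested genes.

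For comparison, 27 genes of other interferon-inducible families (Ifit, Gbp, Irg and Ifi200) were taken. Their median log2 fold change was -2.29 with SR9009 alone and -0.43 with LPS present. Of the 27, 16 were called lower with SR9009 alone, against 0.566% of all tested genes. With LPS present none was called, against 0.737% of all tested genes called lower. A list of 20 early NF-κB target genes had medians of -0.46 and -0.44, with no gene called in either comparison. The 44 antiviral genes, at -1.29 and -0.37, lay between these 2 lists without LPS. With LPS present their median was nearer to 0 than that of either list. Negative values there numbered 40 of 44 antiviral genes, 21 of 27 of the other families and 16 of 20 NF-κB genes. Differences between the lists were not tested.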

How the data were processed

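RNA was captured by poly(A), per the labels' protocols, and HISAT2 and the mouse build GRCm39 (mm39) are named in the submitters' processing notes. The tool used for counting, its strand setting and its annotation were not given in the sources used here, so antisense overlaps and close copies (the Oas1, Phf11, Schlafen, Trim30 and Ifi27 families) are uncertain. The authors deposited raw counts per gene, and FPKM values scaled by gene length and library size, per the file headers. FPKM was used for levels between genes and as an alternative unit.

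Counts were fitted with edgeR 4.0.16 (R 4.3.3, limma 3.58.1, DESeq2 1.42.0) with 1 mean per group over 16 libraries, TMM scaling and filterByExpr (minimum count 10, minimum total 15), and p-values were adjusted over 13438 genes. CPM uses TMM-scaled library sizes. Replicates are separate mice. Tables and figures used Python 3.11.15, pandas 2.3.3, numpy 2.4.6 and matplotlib 3.10.9. G+C content came from the longest transcript in GENCODE M21.

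The members and lists were chosen with earlier results of these data known. Values in every library are given by rule for the genes with the smallest and largest p for SR9009 versus DMSO in each role group and for genes not raised by LPS. Most others are marked as chosen after their values were seen. Some, such as Oasl1, Ifitm3 and Irf7 with LPS present, also stand outside that rule but carry no mark. Genes of the upstream list are given by counts, with some of those called and some others named. A called upstream gene is counted but its values are not reported here.

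The same 4 mice gave all groups, so mouse number pairs the libraries. Deviations from group means correlated at 0.0809 to 0.560 (median 0.249) over 24 same-mouse pairs, 22 of them over 0.1, and at a median of -0.0899 over 72 pairs of different mice. Alternatives were other scalings, filters, tools and units, the replicate block, fits of only the groups compared, and leaving out 1 mouse at a time or the SR9009 library of mouse 1.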

Additional observations from a re-analysis of the deposited data

Results flagged for a closer look

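In groups of 4 libraries, a library was marked where its gap to the nearest other, divided by the range of the group, was above Dixon's critical value for 4 samples. Of 68 groups of the genes given in full, 3 were marked, and chance marks about 1 in 20. Eif2ak2 was at 138.7 CPM in the SR9009 library of mouse 1, and the next highest was 58.0 CPM. Trim30a was at 289.9 CPM in the same library, and the next highest was 113.7 CPM. Both genes are among the 22 of lower G+C content. Epsti1 was at 213.2 CPM in the SR9009 plus LPS library of mouse 1, the lowest of its group, and the next lowest was 305.0 CPM.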

How the results depend on the processing

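The counts of genes raised by LPS and by LPS after SR9009 stayed within 1.5 times under every alternative run. For genes lower in SR9009 than in DMSO (18), DESeq2 gave 32, the compared groups alone gave 0, leaving out the SR9009 library of mouse 1 gave 28, that with the replicate block gave 40, the replicate block alone gave 22 (16 of the 18 among them), and leaving out each mouse gave 0 to 25. For genes lower in SR9009 plus LPS than in LPS (0), DESeq2, limma-voom, limma on log2 FPKM and the replicate block each gave 1 (Phf11b), the compared groups alone gave 8, leaving out the SR9009 library of mouse 1 gave 7, that with the block gave 14, and leaving out each mouse gave 0 to 3. For the interaction (0), DESeq2 gave 6, the replicate block 2, leaving out the SR9009 library of mouse 1 gave 1, that with the block gave 13, and leaving out each mouse gave 0. The cause was not tested, and no share of all tested genes called is given for these alternatives. Ifih1 with LPS present turned from -0.050 to 0.022 with upper-quartile scaling, and ran from -0.21 to 0.060 when each mouse was left out. Of the values for the 17 genes given in full, 251 of those for LPS kept their direction and side of the threshold, 3 fell below it (Bst2) and 1 rose past it. For SR9009 alone the numbers were 209, 23 and 23. With 4 mice and 12616442 to 24214863 counts per library, genes below a few CPM, such as Slfn1 and Mx2 with SR9009, have the widest counting error.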
